A study of Mus musculus with 11 samples.

Results

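Synaptic vesicle release genes were followed in RNA-seq of GFP-positive cells sorted from the mouse ventricular-subventricular zone (V-SVZ), the germinal tissue lining the lateral ventricle, at postnatal day 2. The set holds 44 genes named by family: the synaptotagmins and Doc2b, the neuronal SNAREs, the complexins, the tomosyns and amisyn, the SV2 proteins, the synapsins and synaptophysin, the Rab3 GTPases, the RIMs, Bassoon and Piccolo, and the Munc13 proteins. All 44 were found by symbol among the 39179 genes of the count table, and the rule that names them uses gene family and not expression. Of these, 42 had enough counts to be tested. Syt12 and Cplx3 did not.

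Genotype was the variable compared. The 5 KO libraries carried Gsh2-Cre, the RCE reporter and Zeb2 fl/KO, a floxed Zeb2 allele over a null allele. The 6 Ctrl libraries carried Gsh2-Cre, RCE and Zeb2 fl/wt, so both groups held Cre and a floxed allele, and the controls were expected to keep a single working copy in the Cre lineage. All mice were of the CD1/Swiss background. Zeb2 encodes a zinc finger transcription factor. Gsh2-Cre marks the descendants of Gsh2-expressing ventral telencephalic progenitors, which are mostly GABAergic neurons and some glia, and the null allele was carried by every cell of a KO mouse. The labels do not tie each library to an animal of its own. The p-values therefore reflect how libraries vary, which may be technical variation.

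Vesicle release follows a fixed order. Synapsins hold vesicles in reserve, Rab3 and RIM proteins bring them to the active zone, and Munc13 proteins prime them by helping Vamp, syntaxin and Snap25 assemble into the SNARE complex. Complexins hold or promote the assembled complex, and calcium binding to a sensor synaptotagmin triggers fusion. At birth most V-SVZ-derived neurons are still migrating, and many of these genes rise later, as synapses form.

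Library totals ran between 6833981 and 13073505 counts, and 16836 to 18649 genes had at least 1 count. At these depths 3 counts, taken as the floor of detection, equal 0.229 to 0.439 CPM (counts per 1000000 of the library total), counting error alone. Zeb2 itself stood at 373, 252, 336, 345 and 202 CPM in KO libraries 1 to 5, against 241, 272, 219, 265, 285 and 152 CPM in Ctrl libraries 1 to 6. The count sums all exons, those outside the deleted segment included, so it does not check the labels. Libraries KO 5 and Ctrl 6 stood apart from the rest on the second principal component of expression, at -64.4 and -60.6, with the other 9 libraries between -18.3 and 36.6. KO 5 held 203 CPM of ependymal and choroid plexus marker genes, against 13.5 CPM at most in any other library, and Ctrl 6 held 2643 CPM of oligodendrocyte-lineage marker genes, against 981 to 1522 CPM in the other Ctrl libraries. Genes on the Y chromosome had 0 counts in all 5 KO libraries and in Ctrl 4 and Ctrl 5, and 763 to 2716 counts in Ctrl 1, 2, 3 and 6. Sex and genotype are therefore partly confounded, and each result below is also given for the libraries without Y-linked counts where that ends the call.

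Of the 42 tested release genes, 10 were higher and 1 was lower in KO libraries at an adjusted p below 0.05, and 31 were not past the threshold. Amisyn (Stxbp6) and Sv2c changed most, followed by the synaptotagmins Syt13, Syt6, Syt1 and Syt14, then Rab3b, Syn1, Sv2a and Vamp2. Complexin 1 (Cplx1) was the gene that fell. Over all 14104 genes tested, 623 were called, which is 4.42%, with 378 higher (2.68%) and 245 lower (1.74%). The median log2 fold change was 0.27 over the 42 release genes and -0.02 over all genes tested. In 8 release genes every KO library lay above every Ctrl library, an arrangement met by 2.67% of all genes, and in 1 every KO library lay below every Ctrl library, which 2.32% of all genes met. Calls for Stxbp6, Syt6, Syt13 and Syt1 held under all 23 alternative analyses. The other 7 were not past the threshold among the libraries without Y-linked counts (5 release genes called, Unc13c being the fifth, and 218 of all genes), nor with the Y-linked level as a covariate (4 release genes and 186 of all genes). Without any 1 of Ctrl 2, 3 and 4 or KO 3, 7 release genes were called. DESeq2 called 13, the same 11 with Cplx2 and Vamp1, against 7.35% of the genes to which it gave an adjusted p. At an unadjusted p below 0.05 edgeR gave 16 of the 42 release genes (38.1%), against 2441 of all 14104 (17.3%).

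**Figure D1:**
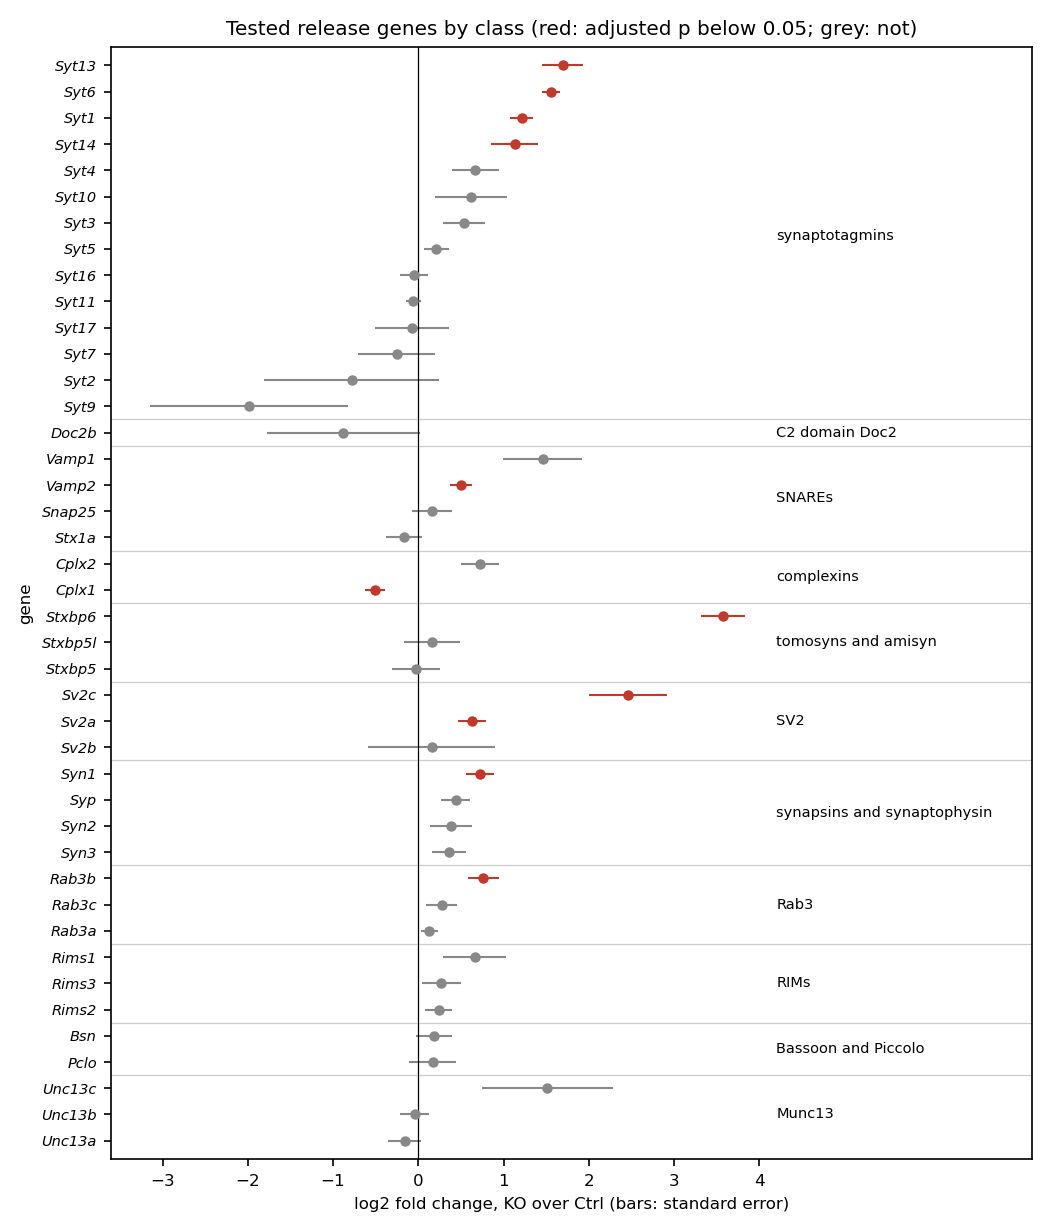
Log2 fold change, KO over Ctrl, of the 42 tested release genes (points) with standard errors (bars), grouped by class down the page, with red for an adjusted p below 0.05 and grey for the rest. Stxbp6 at 3.58 and Sv2c at 2.46 lie farthest to the right, and Cplx1 at -0.51 is the red point left of 0.

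Cell type markers moved between the groups beside these genes, and their part in the changes was not tested. In bulk samples of this kind, more cells of a type and more RNA per cell cannot be told apart. Genes marking neurons of any type summed to 6279 to 7386 CPM in KO libraries and 6535 to 7579 CPM in Ctrl libraries, with 2 of 10 higher in KO. Markers of interneurons of the medial ganglionic eminence and cortex summed to 2604 to 4006 CPM in KO, against 524 to 896 CPM in Ctrl, with 6 of 10 higher and 2 lower. Olfactory bulb interneuron markers summed to 832 to 1119 CPM in KO and 564 to 830 CPM in Ctrl, with 2 of 8 higher (Calb2 and Pax6) and 1 lower (Prox1). Most of that list went the other way from its sum, with 6 of 8 log2 fold changes negative and a median of -0.35. Striatal projection neuron markers summed to 286 to 441 CPM in KO, against 613 to 1880 CPM in Ctrl, with 7 of 12 lower and 1 higher. Cycling-cell markers summed to 259 to 446 CPM in KO and 416 to 793 CPM in Ctrl, with 2 of 10 lower. All 10 of their log2 fold changes were negative, with a median of -0.68. Of these, 6 of 10 had an edgeR unadjusted p below 0.05, against 17.3% of all genes. Progenitor markers summed to 1851 to 2082 CPM in KO and 1693 to 2726 CPM in Ctrl, with 1 of 8 lower and 6 of 8 log2 fold changes negative. Oligodendrocyte-lineage markers summed to 748 to 1188 CPM in KO and 981 to 2643 CPM in Ctrl, and radial glia and astrocyte markers to 910 to 1870 CPM in KO and 1070 to 2002 CPM in Ctrl. Pallial glutamatergic markers summed to 27.4 to 105 CPM in KO and 4.63 to 59.3 CPM in Ctrl, with 1 of 7 tested higher (Neurod1) and all 7 log2 fold changes positive. Endothelial and mural markers summed to 36.6 to 64.2 CPM in KO and 54.5 to 234 CPM in Ctrl, with 0 of 5 tested past the threshold and 1 at an unadjusted p below 0.05. The endothelial and mural list shares Cspg4 with the oligodendrocyte-lineage list, so that gene counts in both sums. Microglial markers summed to 2.22 to 9.37 CPM in KO and 0.501 to 10.99 CPM in Ctrl. The neuron totals of the groups overlapped, though 5 of the 10 neuron markers (50%) had an edgeR unadjusted p below 0.05, against 17.3% of all genes. Totals of the striatal list, and of the medial ganglionic eminence and cortical list, did not overlap. Those of the olfactory bulb list were narrowly apart, at 832 CPM in the lowest KO library and 830 CPM in the highest Ctrl library.

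Zeb2 protein is known to bind DNA at paired copies of CACCT, often within the longer E-box CACCTG, and the promoters of the changed genes were therefore read for these letters. RefSeq promoters on GRCm38.p6, running 250 bases before to 50 bases after a start site, were found for 33 of the 44 release genes (42 promoters). The promoters of Stxbp6 and Sv2c are shown because these genes changed most, that of Syt6 because it was the highest release gene per kb of exon in KO libraries, and that of Syn1 because it holds the most matches of the 4. Capitals mark CACCT, and AGGTG where the match lies on the opposite strand. Each line runs 5′ to 3′ in the direction of transcription.
Stxbp6, chr12:45074434-45074733, minus strand: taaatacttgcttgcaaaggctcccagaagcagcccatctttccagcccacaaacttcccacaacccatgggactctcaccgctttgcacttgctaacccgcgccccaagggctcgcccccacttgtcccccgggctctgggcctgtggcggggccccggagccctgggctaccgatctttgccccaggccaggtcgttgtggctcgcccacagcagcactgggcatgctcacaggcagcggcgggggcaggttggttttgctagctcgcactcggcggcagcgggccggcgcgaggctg
Syt6, most upstream start, chr3:103574995-103575294, plus strand: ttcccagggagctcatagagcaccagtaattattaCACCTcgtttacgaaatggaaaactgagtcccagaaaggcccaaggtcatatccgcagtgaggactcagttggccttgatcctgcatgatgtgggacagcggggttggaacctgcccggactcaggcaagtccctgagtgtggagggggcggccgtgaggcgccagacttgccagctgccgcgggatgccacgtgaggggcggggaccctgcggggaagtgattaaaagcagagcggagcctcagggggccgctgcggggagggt
Sv2c, chr13:96132528-96132827, minus strand: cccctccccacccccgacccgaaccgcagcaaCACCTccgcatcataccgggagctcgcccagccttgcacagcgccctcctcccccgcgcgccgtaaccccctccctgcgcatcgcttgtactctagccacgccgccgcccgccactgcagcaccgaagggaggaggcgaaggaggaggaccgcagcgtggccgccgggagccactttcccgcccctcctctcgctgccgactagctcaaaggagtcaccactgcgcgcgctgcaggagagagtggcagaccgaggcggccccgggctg
Syn1, chrX:20920869-20921168, minus strand: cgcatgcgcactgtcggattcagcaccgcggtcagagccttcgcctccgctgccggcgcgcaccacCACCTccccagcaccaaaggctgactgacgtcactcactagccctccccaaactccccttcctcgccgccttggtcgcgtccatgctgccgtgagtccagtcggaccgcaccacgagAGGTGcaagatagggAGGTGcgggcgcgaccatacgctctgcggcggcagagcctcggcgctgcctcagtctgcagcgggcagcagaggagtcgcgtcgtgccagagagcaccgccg
Stxbp6 held no CACCT on either strand in this window. Sv2c held 1, beginning 218 bases before the start site, Syt6 held 1 at 215 bases before its most upstream start and none in its other 2 promoters, and Syn1 held 3, at 184, 67 and 52 bases before it. Among the changed genes, 9 had a promoter in the table and 5 of these held the shorter motif, while none held the longer one. On either strand CACCT occurred in 22 of the 42 release gene promoters (52.4%) and in 17061 of all 32851 promoters (51.9%). CACCTG, each match of which is also a match of the shorter motif, occurred in 8 of the 42 (19.0%) and in 20.2% of all promoters. TTCAGCACC, the core of the site bound by the neuronal gene repressor Rest, occurred in Syn1 and Unc13a, 2 of 42 promoters (4.76%), against 0.371% of all promoters. Release gene promoters had a median GC content of 63.5%, against 52.7% over all promoters.

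Synaptotagmins are vesicle proteins with paired C2 domains, and some of them bind calcium there. Of 14 tested, 4 were higher in KO libraries and none was lower, by edgeR or by DESeq2. By edgeR 2.68% of all genes were higher. An unadjusted edgeR p below 0.05, in either direction, was met by 6 of the 14 synaptotagmins (42.9%), against 17.3% of all genes. Those known to bind calcium gave 2 of 8 higher, and those not known to bind it gave 2 of 6. Syt6, a calcium-binding synaptotagmin that acts in sperm exocytosis in mouse, on chromosome 3 (103575231 to 103645569, GRCm38), had 852, 804, 765, 726 and 717 CPM in KO libraries 1 to 5, against 216, 268, 227, 271, 307 and 308 CPM in Ctrl libraries 1 to 6. Every KO library was above every Ctrl library, with the lowest KO value more than double the highest Ctrl value. Its log2 fold change was 1.55 (SE 0.107, adjusted p = 7.4e-07).

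Syt1, the fast calcium sensor of synchronous release, lies on chromosome 10 (108497650 to 109010982). It had 208, 192, 216, 184 and 232 CPM in KO libraries, against 77.6, 93.4, 102, 70.0, 121 and 79.3 CPM in Ctrl libraries. The groups did not overlap, and the log2 fold change was 1.21 (SE 0.137, adjusted p = 9.72e-05). Syt13, a synaptotagmin that lacks the calcium-binding residues, lies on chromosome 2 (92915098 to 92956058). It had 49.0, 40.8, 55.2, 44.7 and 32.3 CPM in KO libraries, against 8.93, 23.1, 11.2, 9.13, 12.5 and 18.0 CPM in Ctrl libraries. KO 5 was the lowest of its group and still above Ctrl 2, the highest control. Syt13 had a log2 fold change of 1.69 (SE 0.245, adjusted p = 0.000789).

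Syt14, another member not known to bind calcium, on chromosome 1 (192891233 to 193035775), was scarce. It had 14.9, 12.3, 22.3, 12.9 and 8.73 CPM in KO libraries and 7.32, 6.64, 3.91, 5.29, 8.02 and 8.09 CPM in Ctrl libraries. KO 5 and the highest controls were separated by less than 1 CPM. Syt14 had a log2 fold change of 1.13 (SE 0.274, adjusted p = 0.0291), and the call was lost without any 1 of Ctrl 2, 3 and 4 or KO 1, 3 and 4 (adjusted p up to 0.0982). Among the libraries without Y-linked counts the log2 fold change was 1.12 with an adjusted p of 0.265.

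The other 10 tested synaptotagmins were not past the threshold. Syt11, which does not bind calcium and restrains vesicle retrieval, was the highest of these, at 586, 538, 620.2, 708 and 550.4 CPM in KO libraries and 531, 659, 664, 648, 655 and 636 CPM in Ctrl libraries. Its groups overlapped, with a log2 fold change of -0.06 (SE 0.0879, adjusted p = 0.799). Syt5, a calcium-binding member, averaged 237 ± 35.5 CPM in KO and 208 ± 41.4 CPM in Ctrl (SD, n = 5 and 6), a log2 fold change of 0.21. Syt4, known in neurons for dense-core vesicle release, had 170.0, 125, 156, 142 and 92.2 CPM in KO libraries and 51.7, 119.6, 89.9, 70.1, 151 and 40.2 CPM in Ctrl libraries (log2 fold change 0.67, adjusted p = 0.213). Ctrl 2 and Ctrl 5 lay within the KO values of Syt4. The calcium sensors Syt2, Syt7 and Syt9, which act at mature synapses, had log2 fold changes of -0.78, -0.25 and -1.99 and stayed below 10 CPM in every library: Syt9 ran between 0.0979 and 2.12 CPM in KO and between 0 and 8.45 CPM in Ctrl. Syt3 and Syt10, calcium-binding members, had log2 fold changes of 0.54 and 0.61, and Syt16 and Syt17, not known to bind calcium, of -0.05 and -0.07. Syt12 ran between 0 and 1.86 CPM in KO and between 0 and 2.91 CPM in Ctrl and was not tested.

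The make-up of the family's counts differed between the groups. Syt6 supplied 33.7% to 37.5% of all synaptotagmin counts in KO libraries, against 15.5% to 21.2% in Ctrl libraries. Syt11 supplied 25.1% to 32.9% in KO and 37.6% to 45.7% in Ctrl. The family summed to 2061 to 2277 CPM in KO and 1161 to 1743 CPM in Ctrl, and without Syt6 to 1342 to 1487 CPM in KO and 945 to 1436 CPM in Ctrl, where the groups overlapped. Doc2b, a high-affinity calcium sensor with C2 domains, ran between 0.0787 and 3.52 CPM in KO and between 0 and 6.77 CPM in Ctrl (log2 fold change -0.88, SE 0.892, adjusted p = 0.684).

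**Figure D2:**
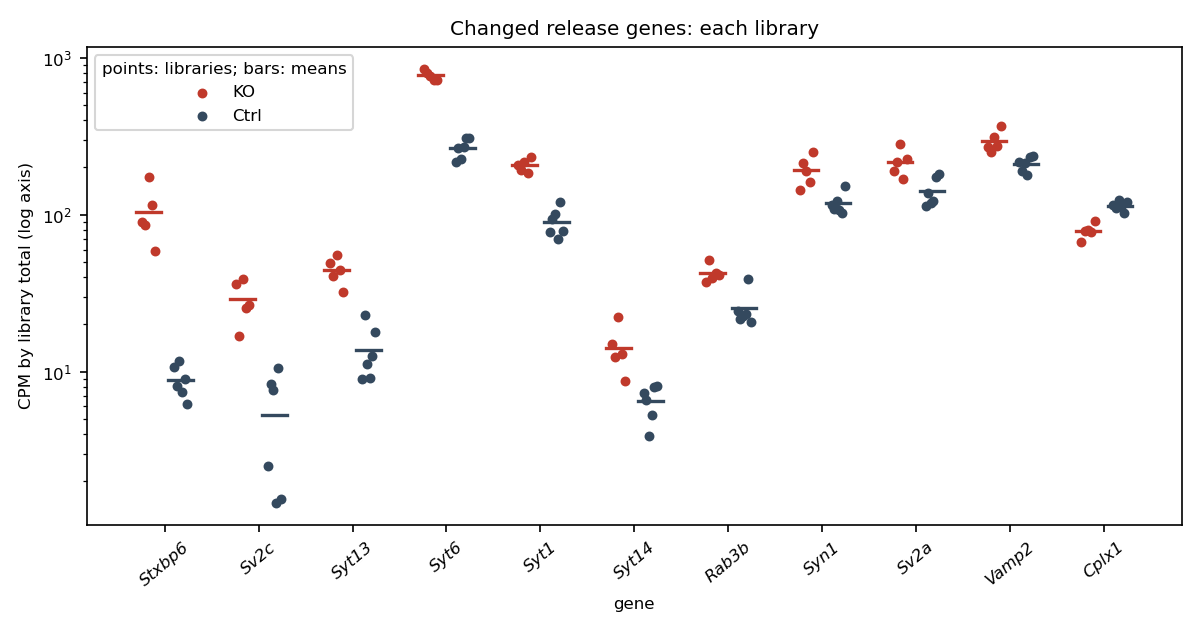
CPM by library total (log axis) of the 11 changed release genes, with KO libraries (n = 5) to the left of Ctrl libraries (n = 6) for each gene, points for libraries and bars for means. Stxbp6 averages 105 CPM in KO and 8.85 CPM in Ctrl with no overlap, while Rab3b, Syn1 and Sv2a overlap at their edges.

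The neuronal SNAREs pull the vesicle and plasma membranes together, and 1 of 4 was higher, against 2.68% of all genes. Vamp2, the main vesicle SNARE of forebrain neurons, on chromosome 11 (69088490 to 69092384), had 271, 250.8, 311, 272 and 369 CPM in KO libraries, against 216, 189, 212, 178, 234 and 237 CPM in Ctrl libraries. The groups did not overlap, though the lowest KO library, KO 2, exceeded the highest control, Ctrl 6, by little. For Vamp2 the log2 fold change was 0.50 (SE 0.125, adjusted p = 0.0335). The call was lost without any 1 of Ctrl 1 to 4, KO 3 or KO 5 (adjusted p up to 0.0904), and among the libraries without Y-linked counts (0.55, adjusted p = 0.26).

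Vamp1, the related vesicle SNARE of brainstem, spinal and some inhibitory neurons, had 16.4, 10.3, 15.2, 15.5 and 14.6 CPM in KO libraries and 6.00, 8.13, 4.81, 4.88, 7.90 and 0.273 CPM in Ctrl libraries. Every KO library was above every Ctrl library, and the test did not pass at a log2 fold change of 1.46 (SE 0.467, adjusted p = 0.102). Ctrl 6 was far below the other controls, at 3 counts, which is the floor of detection. Without Ctrl 6 the adjusted p was 0.00904. DESeq2 called Vamp1 with all libraries, at an adjusted p of 0.0321. The plasma membrane partners did not pass: Snap25 averaged 93.3 ± 21.7 CPM in KO and 84.5 ± 35.5 CPM in Ctrl (log2 fold change 0.16, SE 0.239, adjusted p = 0.796), and Stx1a, syntaxin 1A, averaged 45.0 ± 12.1 CPM in KO and 51.5 ± 11.4 CPM in Ctrl.

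Complexins bind the assembled SNARE complex. Cplx1, on chromosome 5 (108518554 to 108550024), had 66.8, 78.9, 80.4, 77.8 and 90.9 CPM in KO libraries, against 115, 111, 124, 113, 102 and 120.1 CPM in Ctrl libraries. All 5 KO libraries were below all 6 Ctrl libraries, with a log2 fold change of -0.51 (SE 0.117, adjusted p = 0.0205). The call was lost without any 1 of KO 1, 3 and 4 (adjusted p up to 0.0632), and among the libraries without Y-linked counts (-0.41, adjusted p = 0.383). Cplx2 had 153, 85.4, 169, 129 and 76.3 CPM in KO libraries and 67.6, 94.0, 65.7, 73.7, 105 and 43.97 CPM in Ctrl libraries. KO 2 and KO 5 lay among the controls, and the log2 fold change of 0.72 was not past the threshold (SE 0.224, adjusted p = 0.0923). Without KO 5 the adjusted p of Cplx2 was 0.0495, and by DESeq2 with all libraries it was 0.0366. Cplx1 supplied 30.3% to 54.4% of complexin counts in KO libraries and 49.3% to 73.2% in Ctrl libraries, while the complexin sum was 164 to 249 CPM in KO and 164 to 207 CPM in Ctrl. Cplx3, a retinal complexin, had counts in Ctrl 1 only, at 0.439 CPM, which is 3 counts.

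Tomosyns and amisyn carry a SNARE-like motif, bind syntaxin in place of Vamp and hold back fusion. Amisyn, the product of Stxbp6 on chromosome 12 (44852484 to 45074709), had 89.2, 86.2, 174, 115 and 59.0 CPM in KO libraries, against 10.7, 8.13, 11.7, 7.37, 9.03 and 6.18 CPM in Ctrl libraries. The lowest KO library, KO 5, was 5 times the highest control. The log2 fold change was 3.58 (SE 0.255, adjusted p = 8.32e-07), the largest among the release genes. Stxbp6 supplied 75.5% to 86.7% of the counts of its class in KO libraries, against 20.9% to 41.2% in Ctrl libraries. The tomosyn genes did not pass: Stxbp5 averaged 9.92 ± 2.72 CPM in KO and 10.2 ± 3.68 CPM in Ctrl (log2 fold change -0.03, SE 0.28), and Stxbp5l averaged 12.4 ± 2.31 CPM in KO and 11.2 ± 6.11 CPM in Ctrl (0.16, SE 0.326).

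SV2 proteins are vesicle glycoproteins that keep vesicles competent for calcium-triggered fusion. Of the 3 genes 2 were higher, against 2.68% of all genes, in a class too small for a share to describe. Sv2c, the isoform concentrated in the basal ganglia of the adult brain, on chromosome 13 (95954594 to 96132577), had 36.4, 16.9, 39.2, 25.3 and 26.4 CPM in KO libraries, against 2.49, 8.30, 7.61, 1.45, 10.5 and 1.54 CPM in Ctrl libraries. The groups did not overlap, and the controls themselves ran from below 2 CPM to above 10 CPM. The log2 fold change was 2.46 (SE 0.461, adjusted p = 0.00543), and among the libraries without Y-linked counts it was 2.31 with an adjusted p of 0.115. Sv2c supplied 6.79% to 15.9% of SV2 counts in KO and 0.826% to 5.87% in Ctrl.

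Sv2a, the widespread SV2 isoform and the target of the drug levetiracetam, on chromosome 3 (96181151 to 96195521), had 189, 217, 281, 169 and 225 CPM in KO libraries and 113, 138, 119, 123, 174 and 183 CPM in Ctrl libraries. KO 4 lay below Ctrl 5 and Ctrl 6. For Sv2a the log2 fold change was 0.63 (SE 0.162, adjusted p = 0.0385). The call was lost without any 1 of Ctrl 1 to 4 or KO 1, 2, 3 and 5 (adjusted p up to 0.116), and among the libraries without Y-linked counts (0.58, adjusted p = 0.314). Sv2b had 4.08, 15.8, 6.43, 2.68 and 0 CPM in KO libraries and 4.10, 5.31, 3.41, 4.15, 11.9 and 2.73 CPM in Ctrl libraries, a scatter that left its log2 fold change of 0.16 with an SE of 0.742. Without KO 2 it was -0.68.

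Synapsins tether vesicles to one another and to actin. In this class 1 of the 4 genes was higher, against 2.68% of all genes. Syn1, on the X chromosome (20860511 to 20921004), had 144, 212, 189, 162 and 250.5 CPM in KO libraries and 115, 109, 122, 108, 103 and 151 CPM in Ctrl libraries. KO 1 alone lay below the highest control, Ctrl 6. The log2 fold change was 0.72 (SE 0.16, adjusted p = 0.0167). It was 0.90 among the libraries without Y-linked counts, with an adjusted p of 0.116. Syp, synaptophysin, an abundant vesicle membrane protein and also X-linked, had 91.4, 106, 77.2, 88.4 and 110.5 CPM in KO libraries and 55.9, 60.8, 76.3, 55.2, 98.7 and 79.3 CPM in Ctrl libraries. Its log2 fold change of 0.44 was not past the threshold (SE 0.167, adjusted p = 0.18). For Syn2 the log2 fold change was 0.38 and for Syn3 0.36, neither past the threshold. Syn3 shares 1733 bases of exon with Timp3 on the opposite strand, which stood at 28.8 CPM on average, and since the strand setting of the counting is not given in the sources used here, reads of the overlapping pair cannot be told apart.

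Rab3 GTPases sit on the vesicle and bind RIM at the active zone. Rab3b, on chromosome 4 (108879063 to 108943324), was the 1 of 3 that was higher, against 2.68% of all genes. It had 37.2, 51.4, 39.4, 42.5 and 41.2 CPM in KO libraries and 24.4, 21.7, 22.6, 23.4, 39.0 and 20.8 CPM in Ctrl libraries. Ctrl 5 lay within the KO values and the other controls below 25 CPM. Rab3b had a log2 fold change of 0.76 (SE 0.182, adjusted p = 0.0264). The call was lost without any 1 of Ctrl 2, 3 and 4 or KO 2 and 4 (adjusted p up to 0.0696), with KO 5 and Ctrl 6 both left out (0.71, adjusted p = 0.0645), and among the libraries without Y-linked counts (0.47, adjusted p = 0.488). Rab3a, the major Rab3 of brain synapses, had 191, 238, 204, 193 and 221 CPM in KO libraries and 197, 179, 204, 181, 202 and 202 CPM in Ctrl libraries, and Rab3c averaged 36.1 ± 8.99 CPM in KO and 30.1 ± 5.48 CPM in Ctrl. Their log2 fold changes were 0.13 for Rab3a and 0.27 for Rab3c, neither past the threshold.

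Among the 44, none of the 8 active zone scaffold and priming genes passed edgeR's test or DESeq2. An unadjusted edgeR p below 0.05 was met by 0 of the 8, against 17.3% of all genes. Rims4, a RIM gene outside the 44, was higher in KO and is described below. RIM proteins belong to the active zone, and Rims1, Rims2 and Rims3 had log2 fold changes of 0.66, 0.24 and 0.27. Rims3, the highest of the 3, averaged 48.9 ± 8.25 CPM in KO and 41.1 ± 14.2 CPM in Ctrl. Bsn (Bassoon) and Pclo (Piccolo), giant scaffolds of the active zone, averaged 40.3 ± 6.41 and 14.9 ± 4.04 CPM in KO libraries, against 36.0 ± 11.3 and 13.4 ± 5.10 CPM in Ctrl libraries. Unc13a, which encodes the principal priming factor Munc13-1, had 54.9, 78.3, 41.9, 58.4 and 87.2 CPM in KO libraries and 76.7, 74.4, 58.1, 62.6, 77.2 and 88.8 CPM in Ctrl libraries (log2 fold change -0.16, SE 0.192, adjusted p = 0.737). It shares 495 bases of exon with Colgalt1. Unc13b averaged 34.6 ± 4.71 CPM in KO and 36.1 ± 7.05 CPM in Ctrl. Unc13c, the cerebellar form, was scarce, at 2.43 to 5.28 CPM in KO and 0 to 4.01 CPM in Ctrl, with a log2 fold change of 1.52 (SE 0.769, adjusted p = 0.332). Among the libraries without Y-linked counts its adjusted p was 0.0354, where Ctrl 4 and Ctrl 5, at 0.207 and 0 CPM, lay below their 3-count floors of 0.311 and 0.339 CPM, so no fold is given. With the Y-linked level as a covariate the adjusted p was 0.0636. These 8 genes gave intervals too wide, at 1 SE of 0.157 to 0.769 on the log2 scale, to call them equal in both groups.

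Summed by class, tomosyns and amisyn reached 78.1 to 200.2 CPM in KO libraries, against 19.6 to 40.8 CPM in Ctrl libraries. SV2 genes summed to 197 to 327 CPM in KO and 120 to 196 CPM in Ctrl, and synapsins with synaptophysin to 302 to 415 CPM in KO and 202 to 295 CPM in Ctrl. These 2 classes and the synaptotagmins did not overlap between the groups by library totals, but the SV2 and synapsin sums overlapped narrowly after TMM scaling. The sums of SNAREs, complexins, Rab3 genes, RIMs, Bassoon with Piccolo, and Munc13 genes overlapped on both scales. All 44 genes together summed to 4098 ± 181 CPM in KO and 2925 ± 330 CPM in Ctrl (SD, n = 5 and 6). Without Syt6 alone the other 43 genes summed to 3201 to 3633 CPM in KO and 2260 to 3128 CPM in Ctrl, with no overlap. The 33 genes left without the 11 changed ones summed to 1974 to 2225 CPM in KO and 1570 to 2316 CPM in Ctrl. Those 11 were taken out by their calls in these same data, so a smaller difference in the rest follows from the choice.

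**Figure D3:**
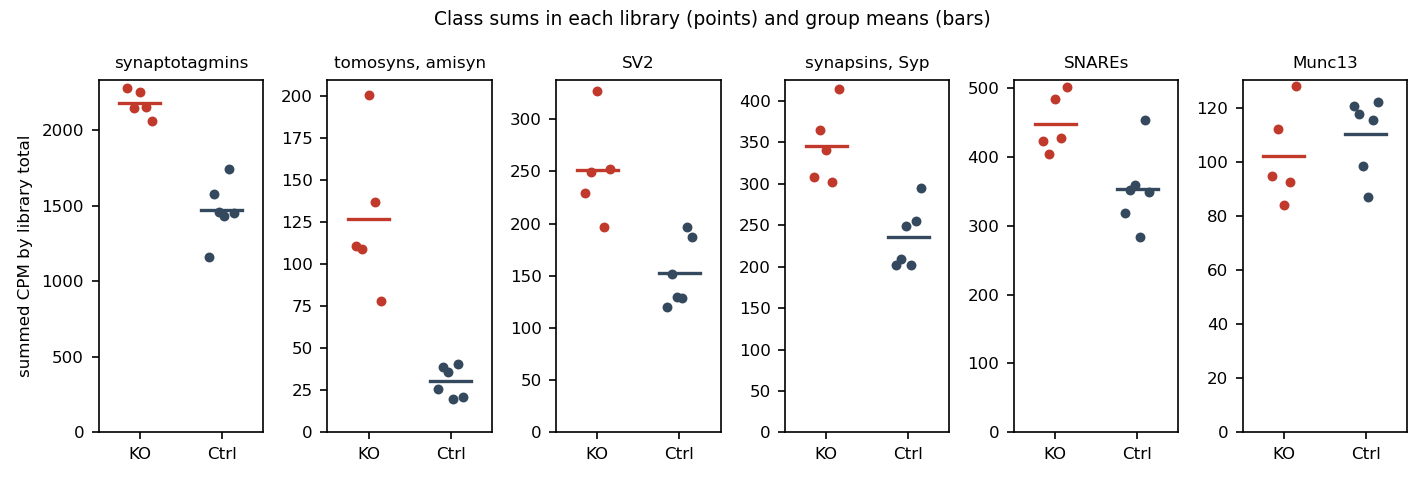
Summed CPM by library total for classes of release genes, with KO libraries (n = 5) left of Ctrl libraries (n = 6), points for libraries and bars for group means, on axes that start at 0. The tomosyn and amisyn sum lies at 78.1 CPM or more in KO and at 40.8 CPM or less in Ctrl, while the Munc13 sums of the groups overlap.

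Levels of different genes were compared per kb of exon. Syt6 ranked first among the 44 genes in KO libraries at 133 ± 9.58 CPM per kb and sixth in Ctrl libraries at 45.6 ± 6.67 CPM per kb. Syt11 ranked second in KO at 115 ± 13.1 CPM per kb and first in Ctrl at 121 ± 9.70 CPM per kb, and in KO the Syt6 and Syt11 levels differed by less than the sum of their SDs. Syt5, Rab3a and Vamp2 followed in both groups, at 99.6, 94.1 and 77.4 CPM per kb in KO and 87.3, 87.2 and 55.4 CPM per kb in Ctrl. Syt5 and Rab3a did not differ beyond their spread in either group. Stxbp6 ranked 12 in KO at 19.7 CPM per kb and 25 in Ctrl at 1.67 CPM per kb, and Sv2c ranked 25 in KO at 2.98 CPM per kb and 37 in Ctrl at 0.548 CPM per kb. Cplx1 ranked 8 in KO at 36.1 CPM per kb and 5 in Ctrl at 52.1 CPM per kb. Rims1, Unc13c, Pclo and the mature-synapse sensors Syt2, Syt7 and Syt9 were below 2 CPM per kb in both groups.

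**Figure D4:**
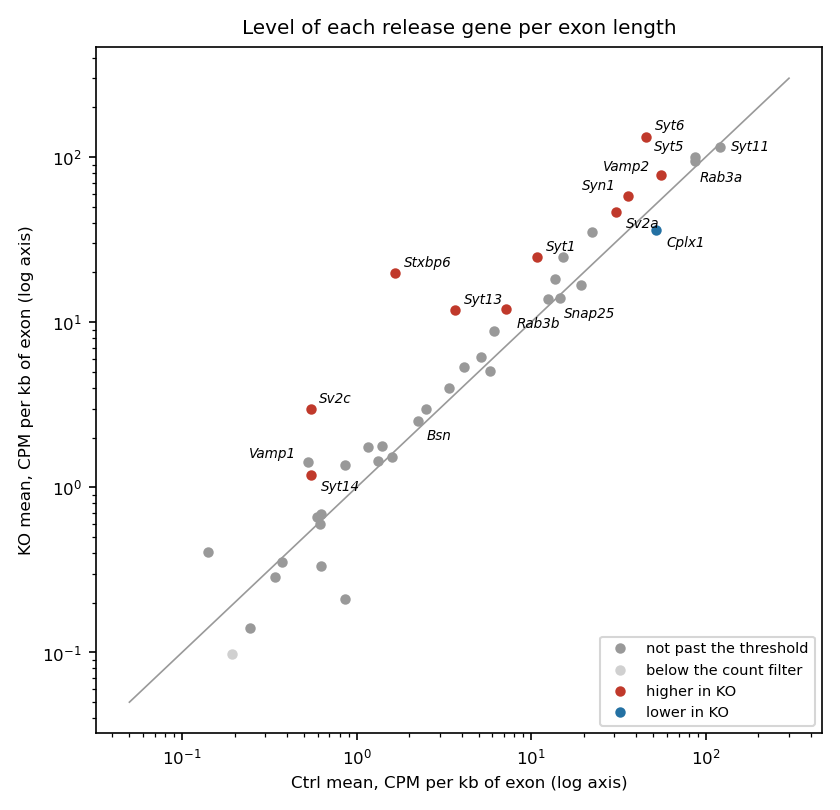
Mean level of each release gene per kb of exon, KO on the vertical and Ctrl on the horizontal axis, both log axes in CPM per kb, with the line of equal levels and colour for the call. Stxbp6, Sv2c, Syt13 and Syt6 lie farthest above the line and Cplx1 below it, and Cplx3, at 0 in KO, is not drawn.

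Single libraries carried more of the extremes than others. KO 3 was the highest of its group in 16 of the 42 tested release genes (38.1%), against 20.0% of all genes, and KO 5 was the lowest of its group in 16 (38.1%), against 32.9% of all genes. Ctrl 5 was the highest control in 15 (35.7%), against 17.9% of all genes, and Ctrl 1 the lowest in 14 (33.3%), against 18.7% of all genes. With KO 5 and Ctrl 6 both left out, an analysis added after the data were seen, 12 release genes were called, 11 higher and 1 lower. Over all 14169 genes tested there, 629 were called, 399 higher and 230 lower. Of the 11 release genes called with all libraries, 10 were among these 12. Rab3b was not, and Cplx2 and Vamp1 joined.

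**Figure D5:**
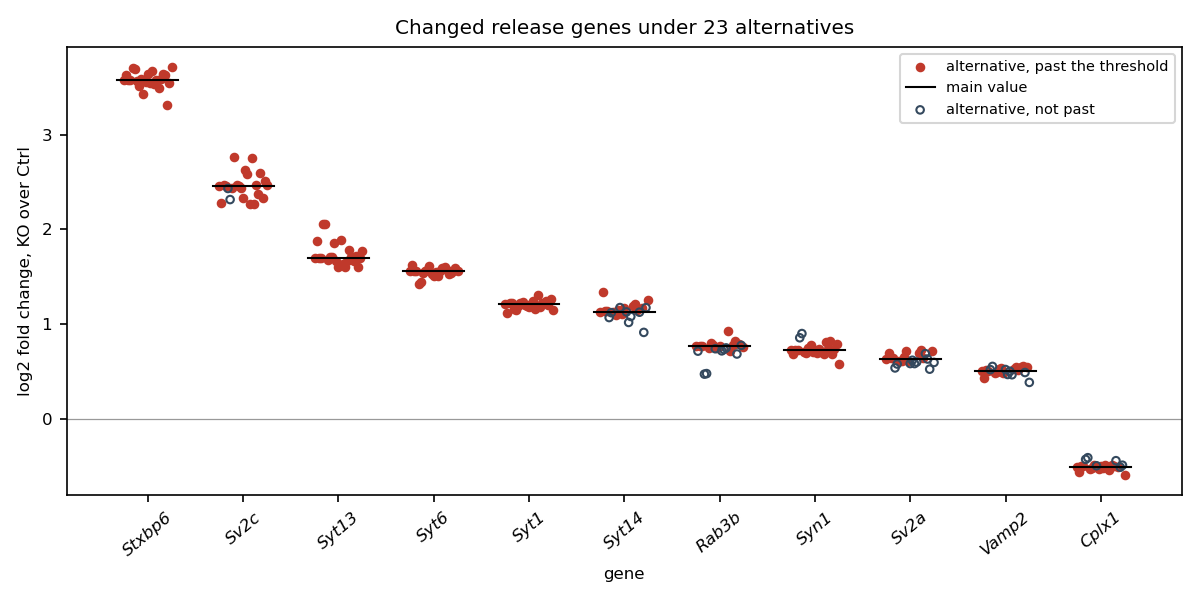
Log2 fold change, KO over Ctrl, of the 11 changed release genes under 23 alternative analyses (points), filled where the adjusted p was below 0.05 and open where it was not, with a black bar for the value given in the text. All points of Stxbp6, Syt13, Syt6 and Syt1 are filled, and no point of any gene crosses 0.

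Beyond the 44 genes, 85 other genes of the release machinery were listed, of which 77 were tested. Of these, 4 were higher in KO (5.19%, against 2.68% of all genes) and none was lower, while DESeq2 called 1 lower. Their median log2 fold change was 0.13. At an unadjusted p below 0.05 there were 17 in either direction (22.1%), a share near the 17.3% of all genes. Rph3a, rabphilin, a Rab3 effector with C2 domains, had 116, 142, 138, 139 and 128 CPM in KO libraries, against 62.0, 98.3, 93.0, 70.6, 80.4 and 98.0 CPM in Ctrl libraries. The groups did not overlap, with a log2 fold change of 0.68 (SE 0.132, adjusted p = 0.00662). Nsf, the ATPase that takes used SNARE complexes apart, had 188, 182, 192, 191 and 158 CPM in KO libraries, against 102, 106, 119, 117, 126 and 143 CPM in Ctrl libraries (log2 fold change 0.63, SE 0.107, adjusted p = 0.00274). Dnajc6, auxilin, which helps strip clathrin from retrieved vesicles, had 63.6, 68.5, 88.0, 56.0 and 43.8 CPM in KO libraries, against 22.7, 32.2, 20.6, 23.5, 27.9 and 9.54 CPM in Ctrl libraries (1.51, SE 0.249, adjusted p = 0.0021). Rims4, a short RIM without the Rab3-binding part, had 21.7, 16.9, 22.7, 11.1 and 14.7 CPM in KO libraries, against 5.85, 2.66, 7.81, 4.98, 1.13 and 7.45 CPM in Ctrl libraries (1.81, SE 0.393, adjusted p = 0.0146). In all 4 genes every KO library was above every Ctrl library, an arrangement met by 5 of the 77 and by 2.67% of all genes. Among the libraries without Y-linked counts Nsf and Rims4 were not past the threshold, at adjusted p-values of 0.0569 and 0.0539. With the Y-linked level as a covariate Nsf, Rims4 and Dnajc6 were not past it, at adjusted p-values of 0.119, 0.0823 and 0.100. Rph3a stayed past it there, narrowly, at 0.0490.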

How the data were processed

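RNA-seq libraries were made with a TruSeq kit from RNA of FACS-sorted GFP-positive V-SVZ cells, per the labels' protocols. Whole-number counts per Ensembl gene were deposited, which the authors made from reads mapped to mm10 (GRCm38). The submitters' processing notes name TopHat2 2.0.13 and featureCounts 1.4.6. Which annotation was counted, with what strand setting and with what handling of multi-mapping reads, was not stated in the labels or headers, so counts of near-identical or overlapping genes are uncertain. Of 39179 gene IDs, 37693 matched a symbol in GENCODE M21 or, where absent there, in a further list of gene names. Positions and exon lengths came from GENCODE M21.

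The counts were fitted with edgeR 4.0.16 (filterByExpr, TMM, robust quasi-likelihood test, genotype as the term) in R 4.3.3 over all 11 libraries. P-values were adjusted by Benjamini-Hochberg over the 14104 genes kept, with a threshold of 0.05. CPM are counts per 1000000 of the library total, so a rise in abundant genes lowers all others. The fit was tested on simulated data. Every pair of replicates differed beyond sampling noise (lowest chi-square over degrees of freedom 13.7). Named genes are those past the threshold plus the most abundant other member of each class, and further members are named to account for the class. Results of 1 gene of the wider release list are not reported here. Members and lists were chosen with earlier results of these data known. The 23 alternatives comprised other scalings, filters and tools (DESeq2 1.42.0, limma-voom 3.58.1), each library left out, a replicate block, the libraries without Y-linked counts, the Y-linked level as a covariate, leaving out Gm42418, and KO 5 and Ctrl 6 both left out, the last added after seeing the data.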

Additional observations from a re-analysis of the deposited data

Results flagged for a closer look

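Among 109 sets of KO or Ctrl values examined for a library far from its group, 5 stood out, and chance flags about 1 in 20. Syt7 reached 3.77 CPM in KO 1, against 2.05 CPM in the next KO library. Rab3b was 39.0 CPM in Ctrl 5, against 24.4 CPM in the next Ctrl library. Sv2b was 11.9 CPM in Ctrl 5, against 5.31 CPM in the next. Syt11 was lowest in Ctrl 1, at 531 CPM, with the next Ctrl library at 636 CPM. Cplx3 was 0.439 CPM in Ctrl 1 and 0 in the other Ctrl libraries.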

How the results depend on the processing

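Under 23 alternatives all 11 changed release genes kept their sign, and Stxbp6, Syt6, Syt13 and Syt1 stayed past the threshold in all of them. Of 961 values of release genes under an alternative, 46 lost a call, 7 gained one and 27 changed sign. Release genes called numbered 5 (5 higher, 0 lower) among the libraries without Y-linked counts and 4 (4 higher, 0 lower) with the Y-linked level as a covariate. They ranged from 7 (without Ctrl 2, 3 or 4, or KO 3) to 12 (without Ctrl 6) with 1 library left out, with 6 to 11 higher and 0 to 1 lower, where Cplx1 was lost without KO 1, 3 or 4. Over all genes, calls numbered 1211 (666 higher, 545 lower) by DESeq2, 218 (150 higher, 68 lower) among the libraries without Y-linked counts and 186 (120 higher, 66 lower) with the covariate. With 1 library left out they numbered 418 to 656 (269 to 405 higher, 149 to 251 lower), with lower calls down to 149 without KO 3, 156 without KO 1, 160.0 without KO 4 and 162 without Ctrl 4. The other release genes gave 8 calls by DESeq2 (7 higher, 1 lower) and 2 with the covariate (1 higher, 1 lower). They gave 2 higher and 1 lower among the libraries without Y-linked counts, and 0 to 1 lower with 1 library left out. The replicate block on 10 libraries, without Ctrl 6, left 8 release genes (8 higher, 0 lower), against 12 without the block on the same libraries, and 143 lower calls over all genes, losing Cplx1, Rab3b, Syt14 and, of the 12, also Vamp1 (adjusted p = 0.05001). Same-numbered libraries correlated at -0.037, -0.067, 0.019, 0.015 and -0.126 in their deviations from the group means. Libraries of different numbers ran from -0.12 (KO 1 with Ctrl 6) to 0.14 (KO 5 with Ctrl 6). The labels do not say whether a number marks a shared litter or day, and these few correlations cannot decide it. Fewer libraries or fewer degrees of freedom entered the subsets, the covariate and the block. Whether that or anything else caused the lost calls was not tested.

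Sign changes fell on 7 genes that were never past the threshold there. With the Y-linked covariate and among the libraries without Y-linked counts, the log2 fold change was -0.12 and -0.17 for Snap25, -0.39 and -0.44 for Sv2b, 0.25 and 0.25 for Syt17, 0.13 and 0.23 for Syt7, and 0.17 and 0.17 for Unc13b. By limma-voom it was 0.0086 for Stxbp5 and -1.26 for Sv2b, and with the replicate block -0.33 for Sv2b. With 1 library left out it ran from -0.15 to 0.12 for Stxbp5, -0.68 to 0.56 for Sv2b, -0.15 to 0.058 for Syt16, -0.28 to 0.077 for Syt17 and -0.13 to 0.029 for Unc13b. Depth limits the genes near the 3-count floor, such as Syt2, Syt9, Syt12, Doc2b and Cplx3.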
